A study of Mus musculus with 3 samples.

Results

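Apolipoproteins are the proteins that carry and address the lipids of plasma lipoproteins. The counts of 7 apolipoprotein genes, Apoe, Apoa1, Apoa2, Apob, Apoc1, Apoc3 and Apoh, are described here out of 19091 genes measured by Drop-seq in mouse liver. The genes were chosen by name, with earlier results of these data known, and all 7 were found in each of the 3 libraries. Drop-seq captures single cells in droplets with barcoded beads and counts RNA molecules by unique molecular identifiers (UMIs), here at the 3′ end of each transcript, so that levels were not divided by gene length. Levels are given as UMIs per 1000000 UMIs of the same barcodes (UPM), and they are compared between samples and classes, not between genes.

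The tissue came from C57BL/6 mice and was compared between uninjured and wounded liver. The control library was made from livers after sham surgery, taken at day 1 according to the labels, whereas the study's methods describe an equivalent uninjured area and name no sham surgery. The other libraries were made 1 day and 7 days post-injury (p.i.) by irreversible electroporation (IRE), in which electric pulses destroy the cells of a small area while leaving the matrix in place. The labels give 8 pulses of 75 V and 50 ms at intervals of 1 s, while the methods give a different voltage. Tissue was taken with a 4 mm punch and digested with dispase, collagenase and DNase, and the tissue of 3 livers was pooled into 1 library for each condition. With 1 library per condition no test across animals was possible, no p-value is given, and every interval below is a 95% interval that covers counting error only.

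Hepatocytes make most plasma apolipoproteins. ApoB is the structural protein of very-low-density lipoprotein, ApoA1 and ApoA2 are the main proteins of high-density lipoprotein, and ApoC3 restrains the clearance of triglyceride-rich particles. ApoH, or β2-glycoprotein I, binds anionic phospholipid. ApoE and ApoC1 are the members that macrophages also make. ApoE is the ligand by which remnant particles are taken up through receptors of the LDL receptor family, and it also accepts cholesterol that leaves lipid-laden macrophages. Kupffer cells are the resident macrophages of the liver sinusoids.

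The members lie in 5 places of the mouse genome in the RefSeq annotation of GRCm38.p6. Apoe is the neighbour of Apoc1, and Apoa1 is the neighbour of Apoc3, while Apoa2, Apob and Apoh each lie next to genes that are no members. Promoter windows from RefSeq (GRCm38.p6) were matched for 5 members by symbol, and 1 window of each is shown, 4 of them from plasma members with ratios to control between 16.2 and 24.6 on day 1 p.i. and 1 from Apoe. No window is shown for Apoc1 and Apoc3. Each window runs from 250 bases before a transcription start to 50 bases after it and is printed 5′ to 3′ on the strand of the gene. They are chr7:19698572-19698871 on the minus strand for Apoe and chr9:46228380-46228679, chr1:171224804-171225103, chr12:7977427-7977726 and chr11:108395047-108395346 on the plus strand for Apoa1, Apoa2, Apob and Apoh. For the 2 genes with several starts, Apoe with 3 and Apoa2 with 2, the window shown was chosen because it holds a TATAAA. Capitals mark matches, on either strand, to the letters TATAAA, known as the TATA box, or CCAAT, the box of that name, to the GC box GGGCGG, to the nuclear receptor element AGGTCA, or to GTTAAT, the core bound by HNF1.
Apoe: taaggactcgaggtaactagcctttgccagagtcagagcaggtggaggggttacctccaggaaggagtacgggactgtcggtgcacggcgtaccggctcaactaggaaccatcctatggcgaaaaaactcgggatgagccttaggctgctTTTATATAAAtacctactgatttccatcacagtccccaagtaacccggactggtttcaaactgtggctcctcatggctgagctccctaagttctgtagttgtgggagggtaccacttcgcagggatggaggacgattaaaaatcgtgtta
Apoa1: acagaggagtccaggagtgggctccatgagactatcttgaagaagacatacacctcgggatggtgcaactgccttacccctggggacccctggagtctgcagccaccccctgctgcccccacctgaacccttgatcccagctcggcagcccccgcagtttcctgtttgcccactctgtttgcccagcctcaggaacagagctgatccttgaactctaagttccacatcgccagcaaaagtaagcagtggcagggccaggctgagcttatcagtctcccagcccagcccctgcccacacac
Apoa2: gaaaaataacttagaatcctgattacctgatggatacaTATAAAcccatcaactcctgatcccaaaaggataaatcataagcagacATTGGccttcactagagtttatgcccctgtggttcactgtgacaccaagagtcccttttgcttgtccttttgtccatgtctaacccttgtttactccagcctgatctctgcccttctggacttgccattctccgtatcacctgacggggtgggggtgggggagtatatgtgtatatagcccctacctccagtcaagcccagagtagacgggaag
Apob: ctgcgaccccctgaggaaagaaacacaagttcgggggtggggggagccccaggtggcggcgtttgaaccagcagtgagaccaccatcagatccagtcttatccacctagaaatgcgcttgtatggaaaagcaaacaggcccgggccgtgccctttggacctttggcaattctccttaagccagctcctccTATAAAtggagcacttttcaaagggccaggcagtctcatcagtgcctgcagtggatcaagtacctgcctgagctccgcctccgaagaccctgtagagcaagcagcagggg
Apoh: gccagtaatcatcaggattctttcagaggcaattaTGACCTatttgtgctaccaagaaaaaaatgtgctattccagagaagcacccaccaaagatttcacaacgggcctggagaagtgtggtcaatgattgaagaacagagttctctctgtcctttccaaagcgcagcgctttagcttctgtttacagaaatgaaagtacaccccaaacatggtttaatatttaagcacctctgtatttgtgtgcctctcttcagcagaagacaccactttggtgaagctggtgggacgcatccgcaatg
The capitals in the Apoe window are a TATAAA at bases 155 to 160 and another on the opposite strand at bases 151 to 156, which overlap. The Apob window holds a TATAAA at bases 191 to 196. The Apoa2 window holds a TATAAA at bases 39 to 44 and a CCAAT on the opposite strand at bases 87 to 91. In the Apoh window an AGGTCA was found on the opposite strand at bases 36 to 41, and the Apoa1 window held none of these letters. Of the windows not shown, 1 of Apoe (chr7:19698349-19698648) holds a GTTAAT on the opposite strand at bases 79 to 84. The other of Apoe (chr7:19699139-19699438), whose start lies furthest upstream of the 3, held none of these letters. That of Apoa2 (chr1:171221314-171221613) holds an AGGTCA at bases 13 to 18 and a CCAAT at bases 123 to 127, both on the opposite strand. Among 32851 promoter windows of the same length, 13.6% held a TATAAA, 37.4% a CCAAT, 35.7% a GGGCGG, 16.3% an AGGTCA and 7.1% a GTTAAT. The TATAAA of the Apoe and Apoa2 windows was fixed by the choice of window and cannot be read against these shares. A match describes these letters only.

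Barcodes with at least 200 detected genes were taken as cells, which gave 10386 of 15704 barcodes in control, 9253 of 18161 on day 1 p.i. and 5624 of 12466 on day 7 p.i., with median depths of 595, 509 and 456.5 UMIs. Barcodes under 200 genes served as a sample of free RNA, the RNA that any droplet can pick up. Their median depths were 295, 267 and 215 UMIs in the same order. Shallow or broken cells among them could not be told apart from droplets without a cell. Cells were put into classes by marker genes, none of which is a member, and 34.6 to 38.9% of the cells of a library stayed without a class. A class set in this way is a range of marker counts and not a cell type. Hepatocyte-gated barcodes, with at least 10% of their UMIs from 22 hepatocyte markers, numbered 17 in control, 268 on day 1 p.i. and 0 on day 7 p.i. The liver libraries thus held few or no hepatocytes by this gate, and the cells were mostly non-parenchymal. All 22 hepatocyte markers, all 15 macrophage markers and all 12 T and NK cell markers had UMIs in their own class where the class held any barcode. Mitochondrial UMIs took 20.5, 21.7 and 4.10% of the cell UMIs of the libraries in the same order. Among cells, 68 barcodes were shared between control and 1 day p.i., 44 between control and 7 days p.i. and 149 between the injured libraries.

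Over all cells, Apoe differed least from control among the members on day 1 p.i. Its level was 11364 UPM in control (91068 UMIs), 12113 on day 1 p.i. (73984 UMIs) and 4668 on day 7 p.i. (14278 UMIs). The control and 1-day libraries therefore stood close together, with a ratio of 1.07 (interval 1.06 to 1.08), and the 7-day library stood below both. The 7 members summed stood at 12344, 23225 and 4846 UPM, with ratios to control of 1.88 (1.87 to 1.90) on day 1 p.i. and 0.393 (0.386 to 0.399) on day 7 p.i. For Apoe the direction on day 1 p.i. turned with the setting, since the ratio was 0.971 with every barcode thinned to 300 UMIs, 0.924 without the 5% deepest barcodes and 0.900 without hepatocyte-gated barcodes.

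Apoc1, which encodes a small apolipoprotein that inhibits lipoprotein uptake and lipid transfer, was highest on day 1 p.i. It reached 550 UPM in control, 2840 on day 1 p.i. and 114 on day 7 p.i. The ratio to control was 5.16 (4.99 to 5.33) on day 1 p.i. and 0.207 (0.185 to 0.231) on day 7 p.i.

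The 5 plasma apolipoproteins made by hepatocytes differed far more from control on day 1 p.i. Apoa1 stood at 146 UPM in control, 2415 on day 1 p.i. and 20.6 on day 7 p.i. Apoa2 stood at 184, 3847 and 23.2 UPM in the same order. Both high-density lipoprotein genes were thus highest in the 1-day library and lowest in the 7-day library, and the same order held for the other 3 genes. Apoc3 had 64.3, 1381 and 16.7 UPM. Apoh had 30.3, 492 and 3.27 UPM, the last from 10 UMIs. Apob, with 44, 826 and 2 UMIs in all, gave 5.49, 135 and 0.654 UPM.

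On day 1 p.i. the ratios to control of these 5 genes lay between 16.2 and 24.6. The smallest was that of Apoh, 16.2 (14.2 to 18.6), and the largest that of Apob, 24.6 (18.2 to 34.2), with 16.5 (15.6 to 17.5) for Apoa1, 20.9 (19.9 to 22.1) for Apoa2 and 21.5 (19.7 to 23.5) for Apoc3. The 22 hepatocyte markers, summed, had a ratio of 18.9 (18.6 to 19.3), which lay inside this range. Thus 6 of 7 members, all but Apoe, were at least 2-fold higher on day 1 p.i., where 12.2% of the 11357 genes with at least 50 UMIs were as much higher. No member was at least 2-fold lower, beside 5.86% of all genes. In such sums, fewer cells of a type and less RNA per cell cannot be told apart. Hepatocyte markers took 0.168% of cell UMIs in control, 3.17% on day 1 p.i. and 0.0346% on day 7 p.i., and their part in these ratios was not tested.

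On day 7 p.i. all 6 members that passed the filter of 50 UMIs were at least 2-fold lower than in control, beside 21.8% of 10227 genes, and none was at least 2-fold higher, beside 8.79%. Apob did not pass the filter, with 2 UMIs against 44. The ratio was 0.411 (0.404 to 0.418) for Apoe, 0.141 (0.108 to 0.182) for Apoa1, 0.126 (0.0981 to 0.160) for Apoa2, 0.259 (0.191 to 0.346) for Apoc3 and 0.108 (0.0511 to 0.202) for Apoh. Both time points were set against the same control library. The median log2 ratio of all genes in this comparison was -0.21, so that the members stood further down than the median gene. The 22 hepatocyte markers had a ratio of 0.206 (0.193 to 0.220). The 17 hepatocyte-gated barcodes held 56.5% of the Apoa1 UMIs and 59.5% of the Apoa2 UMIs of control cells, and without them the ratios moved to 0.321 for Apoa1, 0.310 for Apoa2, 0.260 for Apoh and 0.650 for Apoc3, which was then less than 2-fold lower.

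**Figure D1:**
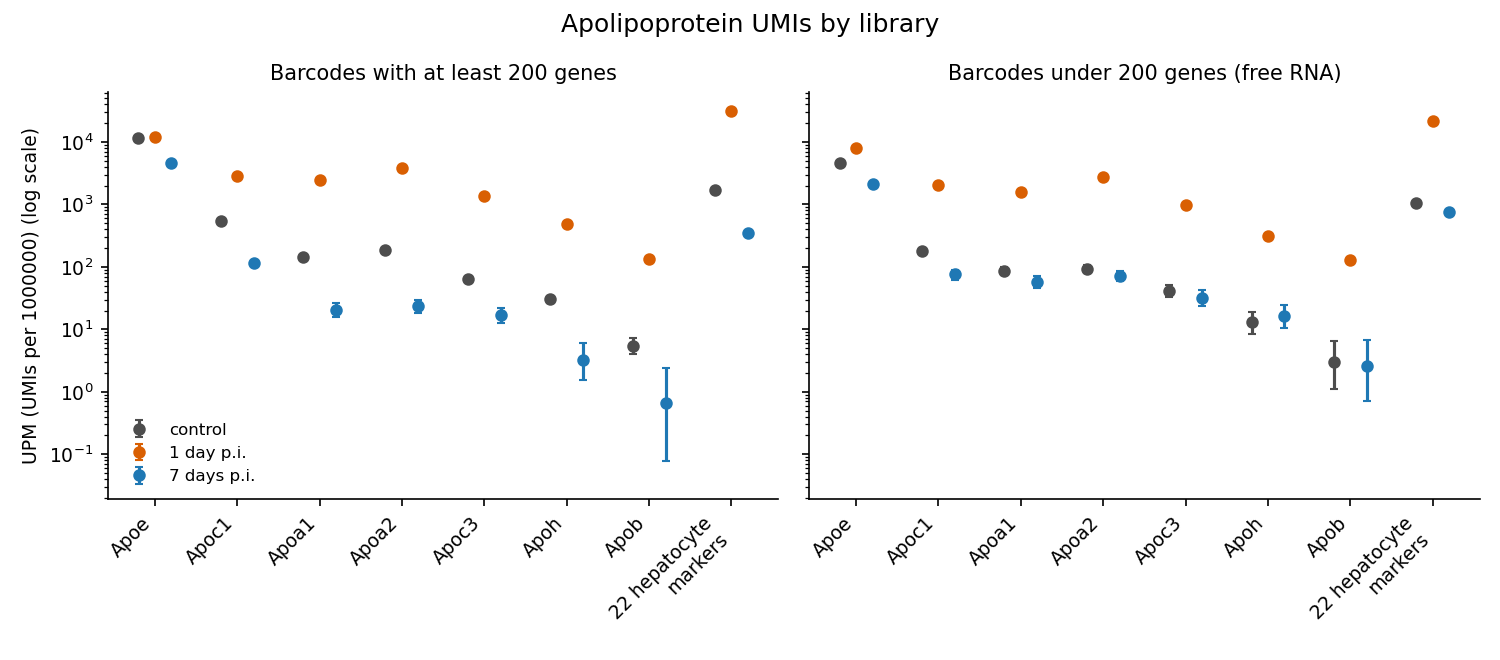
UPM of the 7 members and of the 22 summed hepatocyte markers on a log axis, in cells (left) and in barcodes under 200 genes (right), for the 3 libraries. Points are library sums and bars are exact Poisson 95% intervals, which are often smaller than the point. The 1-day library lies highest for each gene in both panels, and Apoe is the member with the least separation from control, at 12113 against 11364 UPM in cells.

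Free RNA held all 7 members. Apoe reached 4564 UPM of free RNA in control, 7988 on day 1 p.i. and 2133 on day 7 p.i. Apoa2 reached 93.6, 2733 and 72.3 UPM of free RNA in the same order. For Apoe and Apoa2 the libraries thus had the same order in free RNA as in cells. The day 7 p.i. ratio to control lay nearer to 1 in free RNA than in cells for the plasma members, with 0.772 (0.605 to 0.982) for Apoa2, 0.667 (0.510 to 0.868) for Apoa1 and 0.784 (0.539 to 1.13) for Apoc3, against 0.126, 0.141 and 0.259 in cells. Apoh stood at 12.9 UPM of free RNA in control and 16.4 on day 7 p.i., a ratio of 1.28 with an interval that spanned 1, against 0.108 in cells. For Apoa2 the ratio of day 1 p.i. to control was 29.2 (25.3 to 33.9) in free RNA, above the 20.9 found in cells, and for Apoc1 it was 11.3 (10.2 to 12.6), above the 5.16 found in cells.

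Apoe was high in macrophage-gated and hepatocyte-gated barcodes in the same measure in control. It stood at 23309 UPM (23128 to 23491) in the 2878 macrophage-gated barcodes and at 22417 (21241 to 23642) in the 17 hepatocyte-gated barcodes, and these intervals overlapped. Neutrophil-gated barcodes followed with 7208, 18 cholangiocyte-gated barcodes with 5937 (4830 to 7220) and endothelial-gated barcodes with 4842 UPM. Hepatocyte markers took 0.174, 0.677 and 0.0496% of the UMIs of these classes, against 0.0469% in T and NK-gated barcodes. Their part in these levels was not tested. Mesenchymal-gated barcodes had 3564, monocyte-gated barcodes 2863 and T and NK-gated barcodes 1853 UPM. The T and NK class, which should lack the members, stood lowest of these classes and below the 4564 of free RNA, and macrophage-gated barcodes stood 12.6 times higher than it (11.7 to 13.6). The macrophage class took 69.5% of all Apoe UMIs of control cells with 33.9% of their UMIs.

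On day 1 p.i. the hepatocyte class stood highest. Apoe stood at 29508 UPM in 268 hepatocyte-gated barcodes, at 17625 (16689 to 18599) in 18 cholangiocyte-gated barcodes and at 15944 in 2393 macrophage-gated barcodes. Endothelial-gated barcodes had 7502, neutrophil-gated barcodes 5737 and T and NK-gated barcodes 4930 UPM. The intervals of the last pair overlapped, and both stood below the 7988 of free RNA. Macrophage-gated barcodes were 3.23 times higher than T and NK-gated barcodes (2.94 to 3.57) and took 35.3% of the Apoe UMIs of cells, against 24.7% in the hepatocyte class.

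Apoe on day 7 p.i. stood at 12595 UPM (11891 to 13330) in the 131 macrophage-gated barcodes, the highest of the classes described here. Monocyte-gated barcodes had 5442 and the 2733 neutrophil-gated barcodes had 3183 UPM. T and NK-gated barcodes had 775 UPM from 11 UMIs. Neutrophil-gated barcodes held 31.8% of the Apoe UMIs of cells, with 46.6% of the cell UMIs. The macrophage class held 8.37% of them, with 3.10% of the cell UMIs. The largest share, 46.5%, was in barcodes without a class, with 35.7% of the cell UMIs.

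**Figure D2:**
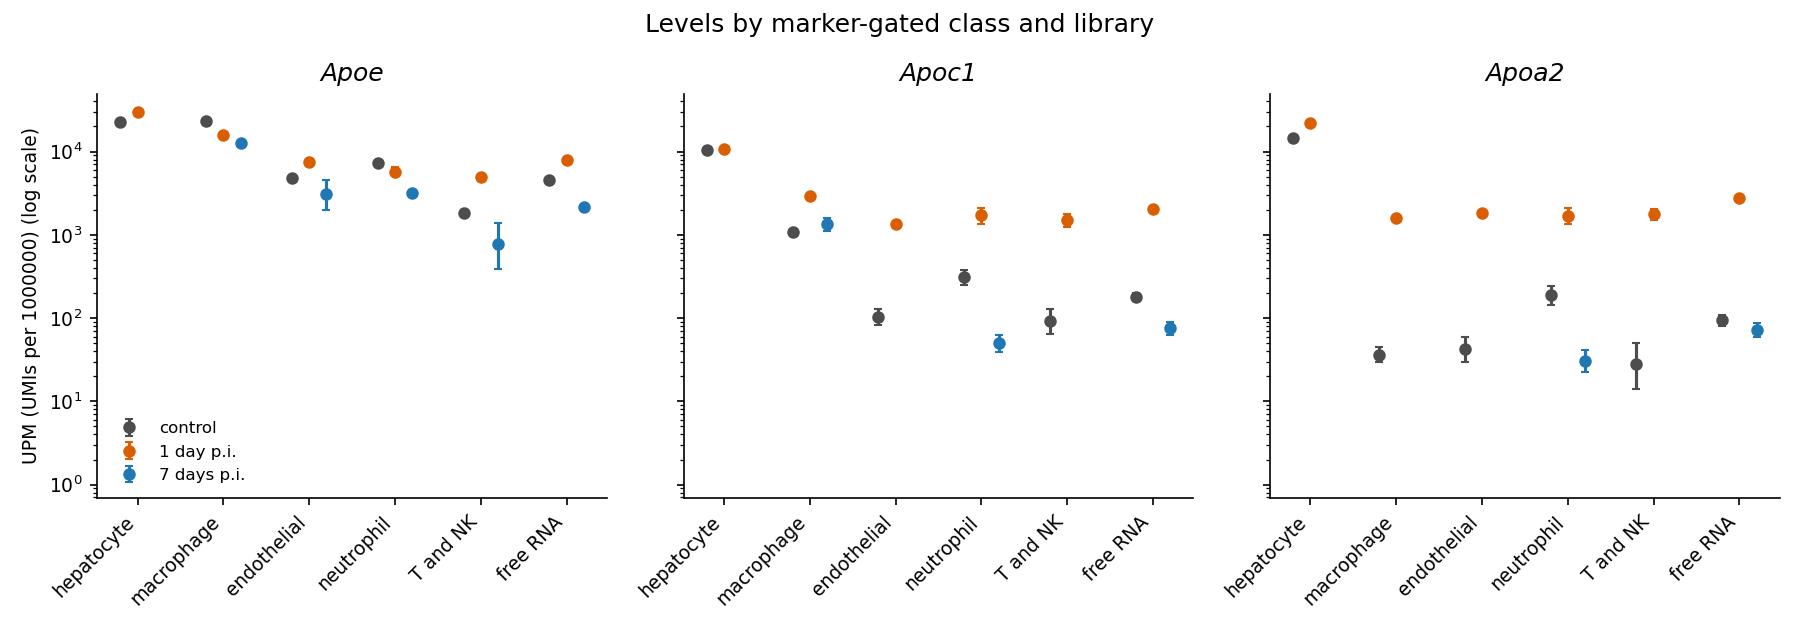
UPM on a log axis of Apoe, Apoc1 and Apoa2 in 5 marker-gated classes and in free RNA, by library, with exact Poisson 95% intervals. No point is drawn for a class with 0 UMIs, and there were no hepatocyte-gated barcodes on day 7 p.i. Apoa2 is highest in the hepatocyte class, at 14477 in control, whereas Apoe is as high in macrophage-gated barcodes, at 23309 UPM in control.

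Within macrophage-gated barcodes Apoe was lower in both injured libraries. The ratio to control was 0.684 (0.674 to 0.694) on day 1 p.i. and 0.540 (0.510 to 0.572) on day 7 p.i. In neither comparison did Apoe pass 2-fold, but on day 7 p.i. it did under 4 alternatives, at 0.469 without mitochondrial UMIs, 0.491 divided by the median gene, 0.483 thinned to 300 UMIs and 0.457 with free RNA subtracted. The other 6 members were at least 2-fold higher in this class on day 1 p.i., where 8.15% of 7559 genes were as much higher, and none was at least 2-fold lower, beside 3.65%. Of the 4 members that passed the filter on day 7 p.i. none was called at least 2-fold higher or lower apart from Apoe under those alternatives, beside 9.93 and 11.0% of 5812 genes, and the median log2 ratio of all genes there was 0.14. For Apoa2, with 0 UMIs against 99, the ratio was at most 0.867, so that a 2-fold lower level was not decided at this depth, and for Apoa1, with 4 UMIs, the interval was 0.306 to 3.02. The hepatocyte markers took 0.0471% of the UMIs of this class in control, 1.35% on day 1 p.i. and 0.0179% on day 7 p.i.

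Apoc1 in macrophage-gated barcodes stood at 1074 UPM in control, 2949 on day 1 p.i. and 1339 on day 7 p.i. The ratio to control was 2.75 (2.62 to 2.88) on day 1 p.i. and 1.25 (1.04 to 1.49) on day 7 p.i. Free RNA held 181, 2042 and 75.6 UPM of Apoc1 in the same libraries. Macrophage-gated barcodes were thus 5.94 times above free RNA in control (5.32 to 6.64), 1.44 times on day 1 p.i. (1.39 to 1.50) and 17.7 times on day 7 p.i. (13.6 to 23.0). With the free RNA profile subtracted after scaling to the hepatocyte markers of the class, a setting chosen after seeing the data, the ratio on day 1 p.i. was 2.47 for Apoc1 and 0.750 for Apoe.

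The remaining members gave low counts in macrophage-gated barcodes of control, 100 UMIs for Apoa1, 99 for Apoa2, 41 for Apoc3, 23 for Apoh and 3 for Apob. On day 1 p.i. the same genes gave 1550, 2575, 1088, 307 and 104 UMIs in this class. Apoa2 stood at 36.5 UPM in control and 1573 on day 1 p.i., a ratio of 43.1 (35.3 to 53.3). T and NK-gated barcodes had 28.2 and 1760 UPM of Apoa2, a ratio of 62.4 (33.9 to 128), and endothelial-gated barcodes 42.5 and 1810. The Apoa2 levels of these 3 classes stood within overlapping intervals in control. No Apoa2 UMI was found in the 131 macrophage-gated barcodes on day 7 p.i., which allows up to 31.6 UPM at a count of 3.

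Set against the hepatocyte markers of the same barcodes, Apoa1, Apoa2 and Apoc3 kept close to 1 proportion in the 4 classes named next and in free RNA. On day 1 p.i. there were 8.08 Apoa1 UMIs per 100 marker UMIs in hepatocyte-gated barcodes, 7.02 in macrophage-gated, 7.38 in endothelial-gated and 7.41 in T and NK-gated barcodes, and 7.26 in free RNA. Apoa2 gave 12.6, 11.7, 11.8 and 11.7 in the same classes and 12.4 in free RNA. Apoc3 ran from 4.23 in hepatocyte-gated to 4.93 in macrophage-gated barcodes, with 4.42 in free RNA. Apoh gave 1.66 in hepatocyte-gated (1.59 to 1.74), 1.39 in macrophage-gated (1.24 to 1.56) and 1.37 in endothelial-gated barcodes (1.23 to 1.53). In T and NK-gated barcodes it gave 2.01 (1.31 to 2.96), and in free RNA 1.44 (1.34 to 1.55). For Apoa1, Apoc3 and Apoh the intervals of hepatocyte-gated and macrophage-gated barcodes did not overlap. The markers that divide here also set the hepatocyte gate, which in part fixes the values of that class. Apob was less even, with 0.287 UMIs per 100 marker UMIs in hepatocyte-gated barcodes (0.256 to 0.321) and 0.594 in free RNA (0.531 to 0.663). Over the 10 classes with at least 100 marker UMIs, free RNA and the barcodes without a class included, the lowest value of Apoa1 and Apoa2 was that of 18 cholangiocyte-gated barcodes, 2.03 and 4.25, and the highest that of B cell-gated barcodes, 9.02 and 14.3.

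Apoe and Apoc1 did not keep 1 proportion. Their low values in hepatocyte-gated barcodes were in part fixed by the gate, which uses the same markers. Apoe gave 17.0 UMIs per 100 marker UMIs in hepatocyte-gated barcodes on day 1 p.i., 32.7 in T and NK-gated barcodes, 36.3 in free RNA and 118 in macrophage-gated barcodes. Apoc1 gave 6.23 UMIs in hepatocyte-gated barcodes, 9.88 in T and NK-gated barcodes, 9.28 in free RNA and 21.9 in macrophage-gated barcodes. Macrophage-gated barcodes were the highest of these classes for both genes, and the 18 cholangiocyte-gated barcodes stood beside them for Apoe, at 123. In control the span was wider, with 18.4 Apoe UMIs per 100 marker UMIs in hepatocyte-gated barcodes, 440 in free RNA and 4949 in macrophage-gated barcodes. Neutrophil-gated barcodes of control gave 414 and T and NK-gated barcodes 395.

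**Figure D3:**
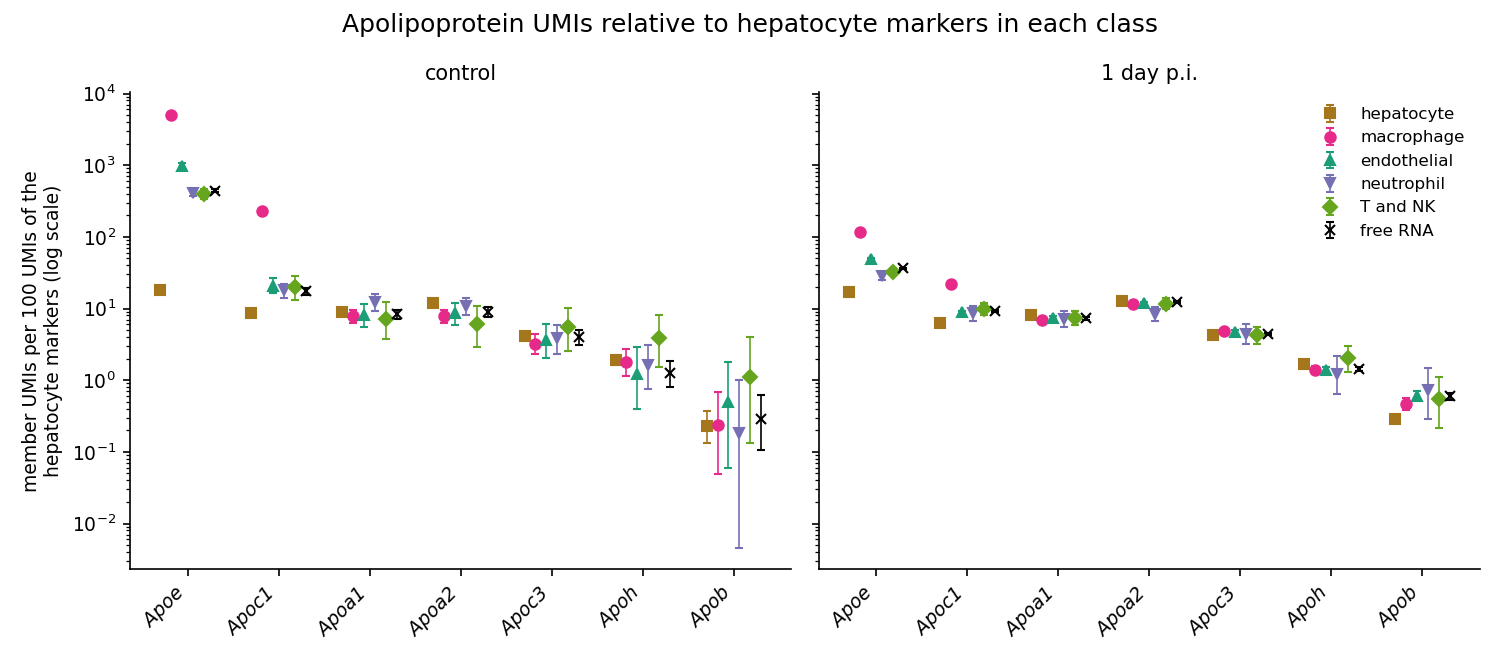
UMIs of each member per 100 UMIs of the summed hepatocyte markers on a log axis, in 5 marker-gated classes and in free RNA, for control (left) and 1 day p.i. (right), with conditional binomial 95% intervals. Apoa1 and Apoa2 lie close together across the classes on day 1 p.i. Apoe and Apoc1 are lowest in hepatocyte-gated and highest in macrophage-gated barcodes, with 17.0 against 118 Apoe UMIs on day 1 p.i. The same markers set the hepatocyte gate, which in part fixes the values of that class.

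Within hepatocyte-gated barcodes, compared between 17 barcodes of control and 268 on day 1 p.i., no member was at least 2-fold higher or lower, beside 11.9 and 7.34% of 1717 genes. Apoa2 stood at 14477 UPM in control and 21901 on day 1 p.i., a ratio of 1.51 (1.41 to 1.62). Apoa1 stood at 10928 and 14023, a ratio of 1.28 (1.19 to 1.39), and Apoe had a ratio of 1.32 (1.25 to 1.39). Apoh had 2361 and 2890 UPM and a ratio of 1.22 (1.03 to 1.46). Apoc1 stood at 10499 and 10808 UPM, and the interval of its ratio, 1.03 (0.949 to 1.12), spanned 1. The markers that set the gate themselves had a ratio of 1.42 (1.39 to 1.46).

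Apoc3, at 5134 and 7341 UPM, had a ratio of 1.43 (1.27 to 1.61), which turned to 0.963 with barcodes thinned to 300 UMIs and to 0.984 without the 5% deepest barcodes. Apob, from 17 UMIs in control, had a ratio of 1.78 (1.09 to 3.09) and was at 0 UMIs in control after thinning, where 3 UMIs in place of 0 give a lower bound of 0.934. The median depth of these barcodes was 3270 UMIs in control and 1290 on day 1 p.i. Of the cells just under the gate, with 8 to 10% marker UMIs, there were 5 in control, 35 on day 1 p.i. and 2 on day 7 p.i., and just over it, with 10 to 12%, there were 9, 41 and 0.

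The number of Apoc1 UMIs per 100 Apoe UMIs had its highest value in the hepatocyte class, though not apart from every class on day 1 p.i. It was 46.8 (42.6 to 51.5) in hepatocyte-gated barcodes of control and 36.6 (35.6 to 37.7) in those on day 1 p.i. In macrophage-gated barcodes it was 4.61 (4.44 to 4.78) in control, 18.5 (17.9 to 19.1) on day 1 p.i. and 10.6 (8.78 to 12.8) on day 7 p.i. Hepatocyte-gated barcodes thus had the higher value in both libraries that held them. The other classes were not all apart, since neutrophil-gated barcodes of control had 4.31 (3.48 to 5.27) and endothelial-gated barcodes on day 1 p.i. had 18.2 (17.4 to 19.1), both overlapping the macrophage class. The day 1 p.i. values of T and NK-gated, 30.3 (24.6 to 37.0), neutrophil-gated, 29.7 (23.0 to 38.1), and dendritic-gated barcodes, 29.3 (18.4 to 45.5), overlapped that of the hepatocyte class. In free RNA the value was 3.96 in control, 25.6 on day 1 p.i. and 3.54 on day 7 p.i., so that on day 1 p.i. free RNA lay between the hepatocyte and macrophage classes, in control below both, and on day 7 p.i. below the macrophage class.

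Macrophage-gated barcodes were not uniform in Apoe and Apoc1. In control, 1938 of 2878 had at least 1 UMI of 5 Kupffer cell markers (Clec4f, Vsig4, Cd5l, Timd4 and Marco), a share of 67.3% (65.6 to 69.1), and 940 had none. Apoe stood at 18226 UPM in the barcodes with a Kupffer marker and at 36029 in those without, 1.98 times higher (1.95 to 2.01). Apoc1 went the opposite way, with 1465 UPM in barcodes with a Kupffer marker and 92.9 in those without, a ratio of 0.0634 (0.0495 to 0.0801). The value without a Kupffer marker was close to the 92.2 of T and NK-gated barcodes. The median depths were 804 and 680.5 UMIs, and after thinning to 300 UMIs the mean was 5.61 Apoe UMIs per barcode with a marker and 11.2 without.

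The same barcodes were also divided by Gpnmb and Trem2, genes of lipid-associated macrophages. In control those with either gene were higher in Apoe and lower in Apoc1, as were barcodes without a Kupffer marker. Apoe stood at 32465 UPM in the 983 barcodes with a UMI of either gene and at 17155 in the 1895 without, and Apoc1 at 471 and 1478. Apoe on day 1 p.i. stood at 19866 UPM in 54 barcodes with a UMI of either gene and at 15835 in 2339 without, 1.25 times higher (1.17 to 1.34). On day 7 p.i. it stood at 15657 in 26 barcodes and at 11520 in 105, 1.36 times higher (1.2 to 1.54). By this division the Apoe gap was thus present in each library. The Apoc1 ratio was 0.319 (0.289 to 0.351) in control, 0.927 (0.767 to 1.11) on day 1 p.i., where the interval spanned 1, and 0.597 (0.359 to 0.952) on day 7 p.i. The median depth was higher with a UMI of either gene, at 912 against 683 UMIs in control, 661 against 552 on day 1 p.i. and 702.5 against 496 on day 7 p.i. These 2 genes are among the markers of the macrophage gate, as are the Kupffer markers.

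On day 1 p.i. nearly all macrophage-gated barcodes carried a Kupffer marker, 2335 of 2393 or 97.6% (96.9 to 98.2), yet 43.3% of T and NK-gated barcodes of that library did so as well, against 20.5% in control. Barcodes with a Kupffer marker had 15968 UPM of Apoe and 2967 of Apoc1. In the 58 barcodes without one, Apoe stood at 14594 and Apoc1 at 1899, and the interval of the Apoe ratio, 0.914 (0.828 to 1.01), spanned 1. Among barcodes with a Kupffer marker the ratio of Apoe to control was 0.876 (0.862 to 0.890) on day 1 p.i. and 0.659 (0.617 to 0.702) on day 7 p.i. Among barcodes without one it was 0.405 (0.367 to 0.446) and 0.442 (0.386 to 0.504), at least 2-fold lower at both times. The lower Apoe level of the whole class on day 1 p.i. thus stood beside lower levels on both sides of the division and a smaller share of barcodes without a Kupffer marker, and the part of each was not tested. On day 7 p.i. all 127 Apoc1 UMIs of the class were in the 105 barcodes with a Kupffer marker, at 1575 UPM, and 0 in the 26 without, where Apoe stood at 15926. Among barcodes with a Kupffer marker the ratio of Apoc1 to control was 2.02 (1.93 to 2.12) on day 1 p.i. It was 1.075 (0.893 to 1.28) on day 7 p.i., with an interval that spanned 1. Without a marker the Apoc1 ratio on day 1 p.i. was 20.4 (14.1 to 29.5), from 54 UMIs against 72.

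**Figure D4:**
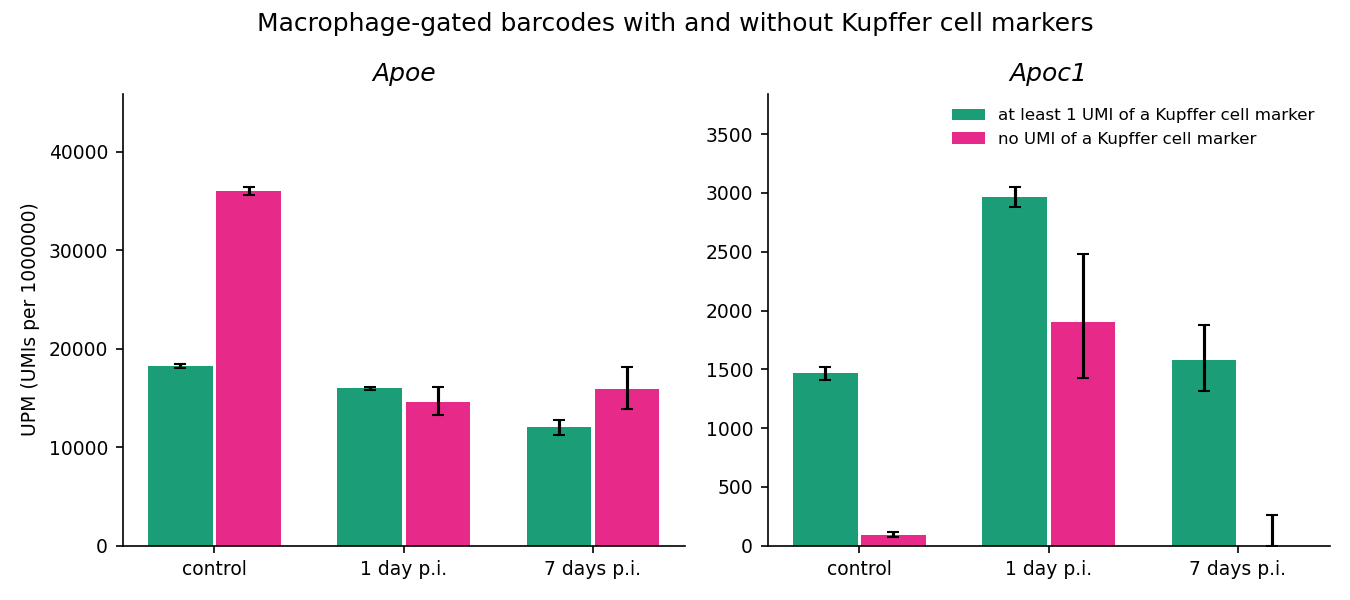
UPM of Apoe (left) and Apoc1 (right) in macrophage-gated barcodes with and without a UMI of 5 Kupffer cell markers, by library. Bars are sums over the barcodes with exact Poisson 95% intervals. In control the barcodes without a Kupffer marker are higher in Apoe, at 36029 against 18226, and lower in Apoc1, at 92.9 against 1465, and on day 1 p.i. the Apoe intervals of this division overlap.

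At equal depth, with each barcode thinned to 300 UMIs and shallower barcodes left out (39, 72 and 15 of the macrophage class), control macrophage-gated barcodes had the widest spread of Apoe. Their median was 5 Apoe UMIs, with a 90th percentile of 18 and a highest value of 41. On day 1 p.i. the median was 4 and the 90th percentile 9, and on day 7 p.i. they were 3 and 8. The medians thus differed by 1 to 2 UMIs, while the upper tail reached much further in control. At least 1 Apoe UMI was found in 94.4% of these barcodes in control, 96.1% on day 1 p.i. and 90.5% on day 7 p.i., and before thinning in 98.3, 99.0 and 96.2%.

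T and NK-gated barcodes gave the background of such shares. After thinning, 45.5% (41.2 to 49.9) held an Apoe UMI in control, 75.2% (67.3 to 82.0) on day 1 p.i. and 14.8% (4.19 to 33.7) on day 7 p.i., and before thinning 71.6, 90 and 27.3%. Their median depths were 606, 491.5 and 378 UMIs, against 766, 556 and 540 in macrophage-gated barcodes. The macrophage share lay above this background in each library. For Apoc1 the thinned share was 23.1% (21.5 to 24.7) in macrophage-gated and 3.50% (2.09 to 5.48) in T and NK-gated barcodes of control, and 54.5% (52.5 to 56.5) and 34.5% (26.8 to 42.8) on day 1 p.i. For Apoa2 the shares were 1.41 and 0.973% in control and 38.2 and 35.2% on day 1 p.i., with overlapping intervals, so that the Apoa2 share of macrophage-gated barcodes was not above background. In the hepatocyte class on day 1 p.i. 98.5% of thinned barcodes held Apoa2.

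**Figure D5:**
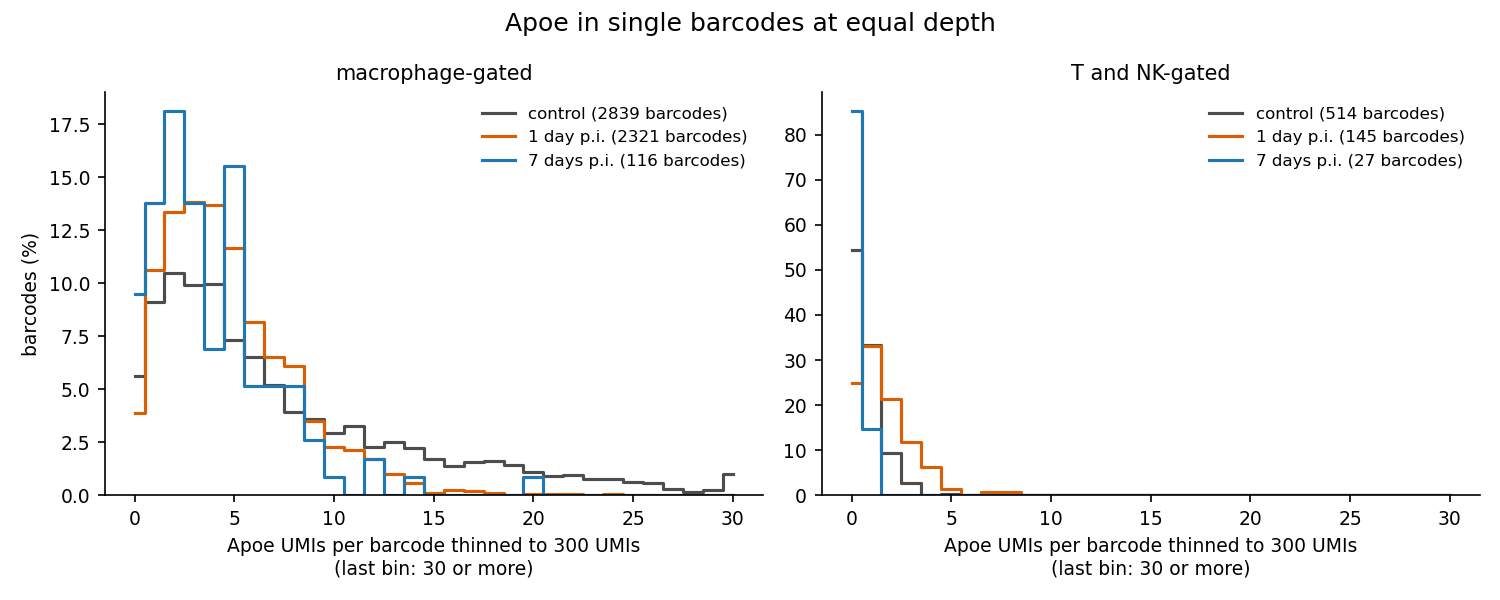
Share of barcodes in percent by the number of Apoe UMIs after thinning to 300 UMIs per barcode, for macrophage-gated (left) and T and NK-gated barcodes (right), by library. The panels have separate vertical axes, and the last bin of each holds 30 UMIs or more. In control, macrophage-gated barcodes have a long upper tail with a 90th percentile of 18 UMIs, against 9 on day 1 p.i. and 8 on day 7 p.i.

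The other genes of lipoprotein metabolism were counted from lists written from general knowledge, over all cells and with the same filter and fold. Of all genes, 12.2% were at least 2-fold higher and 5.86% lower on day 1 p.i., with a median ratio of 1.03, and 8.79% were higher and 21.8% lower on day 7 p.i., with a median ratio of 0.862. A list with a share near these values is no result about its genes. Of the 10 other apolipoproteins 9 passed the filter on day 1 p.i., where 7 were at least 2-fold higher and 0 lower, with a median ratio of 12.9. Apoc4, which lies in the Apoe gene cluster, had a ratio of 16.7 (14.5 to 19.3), and Apoa5, an activator of triglyceride hydrolysis, one of 13.6 (11.5 to 16.1). On day 7 p.i. 4 of 6 were at least 2-fold lower, with a median ratio of 0.266, among them Apoc4 at 0.183 and Apoa5 at 0.0995. Apool, of mitochondria, had a ratio of 1.03 (0.766 to 1.38). Apoc2, the cofactor of lipoprotein lipase, was higher at both times, with 79.7 UPM in control, 171 on day 1 p.i. and 355 on day 7 p.i. Its ratio on day 7 p.i. was 4.45 (4.03 to 4.91), while that of its cluster neighbours Apoe and Apoc1 lay below 1. In macrophage-gated barcodes Apoc2 stood at 88.1, 83.1 and 211 UPM, the last from 20 UMIs.

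Among 11 genes of lipases, transfer and remodelling, 6 of the 9 tested were at least 2-fold higher and 1 lower on day 1 p.i., and 1 of 6 higher and 5 lower on day 7 p.i., beside 12.2% higher and 5.86% lower and then 8.79% higher and 21.8% lower among all genes. The median ratios of the list were 13.1 and 0.227. Lpl, lipoprotein lipase, stood at 720 UPM in control, 258 on day 1 p.i. and 205 on day 7 p.i. Gpihbp1, which holds the lipase on endothelium, stood at 218, 544 and 30.7 UPM. These genes took opposite directions on day 1 p.i. and both were lowest on day 7 p.i. Pltp, the phospholipid transfer protein, stood at 207, 240 and 47.7 UPM.

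Of 9 genes of lipoprotein assembly and secretion, 3 were at least 2-fold higher on day 1 p.i. (Mttp, Tm6sf2 and Dgat2) and 3 of 7 on day 7 p.i. (P4hb, Dgat1 and Dgat2), with none lower, beside 12.2 and 8.79% higher among all genes. The median ratios were 1.36 and 1.84. P4hb, the smaller subunit of the triglyceride transfer protein and a general folding enzyme, stood at 198, 265 and 507 UPM, and the folding enzyme Pdia3 at 513, 453 and 634. Of 12 lipoprotein receptors 8 passed the filter, of which 2 were at least 2-fold higher and 1 lower on day 1 p.i. On day 7 p.i. 3 were higher and 0 lower, and the median ratios were 1.31 and 1.64. Beside both lists, 12.2% of all genes were higher and 5.86% lower on day 1 p.i., then 8.79% and 21.8% on day 7 p.i. Lrp1, which takes up ApoE-bearing remnants, stood at 135, 110 and 157 UPM, without a 2-fold difference.

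Among 7 genes of sterol efflux and esterification, 1 of 6 was at least 2-fold higher and 1 lower on day 1 p.i., and 0 of 5 in either direction on day 7 p.i., with median ratios of 0.685 and 0.919. Among all genes 12.2% were higher and 5.86% lower on day 1 p.i., and 8.79% higher and 21.8% lower on day 7 p.i. The 1 of 6 higher is near the first of these shares. Soat1, which esterifies cholesterol, stood at 96.5, 55.2 and 183 UPM, and the cholesterol exporter Abcg1 at 95.5, 89.4 and 88.3. Of 11 regulators, 4 of 10 were at least 2-fold higher on day 1 p.i., beside 12.2% of all genes. Hnf4a, Nr1h4 and Ppara of hepatocytes were among them. On day 7 p.i. 2 of 7 were at least 2-fold lower, near the 21.8% of all genes. The median ratios were 1.52 and 0.519. Nr1h3, the sterol-sensing receptor LXRα, stood at 116, 134 and 60.2 UPM.

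The genes whose levels ran most like a member were found over 18 sums of a class in a library, each with at least 50 barcodes, among 8025 genes. Sums of 1 library share its free RNA and depth, so the values describe these sums only. For Apoe the highest Pearson correlations of log2 levels were those of Hebp1 (0.89), Dcxr (0.86) and Cfb (0.84). For Apoc1 they were those of Gpt2 (0.92), Cd1d1 (0.91) and Scd1 (0.90). For 4 of the plasma members, genes among the 3 most alike were those of hepatocytes, with Adh1 (0.98) for Apoa2, Bhmt (0.99) for Apoc3, Uox (0.99) for Apoh and Acaa1b (0.99) for Apob, Bhmt being also a marker of the hepatocyte gate. Apoe ran with Apoc1 at 0.76 and with the other members at 0.47 to 0.58, whereas Apoa1 ran with Apoa2 at 0.97 and with Apoh at 0.97.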

How the data were processed

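Drop-seq UMI counts per gene and barcode were deposited for 3 libraries, each from the pooled tissue of 3 livers. Per the file headers the authors counted UMIs at mapping quality 10 or more and merged UMIs at an edit distance of 1, and the submitters' processing notes name STAR 2.5.2a and the human build hg19, although the gene symbols are those of mouse. No gene coordinates of the counts were therefore used. Counts were summed over barcodes per library and class and given per 1000000 UMIs (UPM), with exact Poisson intervals for levels, Clopper-Pearson intervals for shares and conditional binomial intervals for ratios, all at 95% and for counting error only, since UMIs of 1 library say nothing of the spread between animals. A count of 0 was set to a floor of 3 UMIs to give a bound. Total cell UMIs were 8013800 in control, 6107866 on day 1 p.i. and 3058967 on day 7 p.i.

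Barcodes with at least 200 genes were cells. Hepatocyte-gated barcodes had at least 10% of UMIs from 22 markers. Other classes needed 3 marker UMIs of 2 different markers and at least 2 times the marker UMIs of the next class. A gene was called at 2-fold or more among genes with 50 UMIs over both libraries. No doublet caller was run, and the 5% deepest barcodes were left out as an alternative. For likeness, log2 of UPM plus 10 was correlated over classes of at least 50 barcodes and genes with 200 UMIs. All 7 members were named, and of each pathway list the up to 4 genes with the most UMIs. Genes named beyond this were chosen after their values were seen. For 3 markers or list genes the files use an older symbol (Emr1, Gm6484 and Chi3l3). Members, lists and gates were chosen with earlier results of these data known. Values of 1 marker-gated class and 1 gene of like pattern are not reported here. The intervals of ratios were tested on simulated Poisson counts with known ratios. Python 3.11.15, numpy 2.4.6, scipy 1.17.1, pandas 2.3.3 and matplotlib 3.10.9 were used.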

Additional observations from a re-analysis of the deposited data

Results flagged for a closer look

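All 7 members were on opposite sides of the control level at the 2 times after IRE, over all cells. The share of all genes with this pattern was not counted. The median ratio of all genes ran in the same directions, at 1.03 on day 1 p.i. and 0.862 on day 7 p.i. The ratio to control on day 1 p.i. and then on day 7 p.i. was 1.07 and 0.411 for Apoe, which carries remnant particles to their receptors. It was 16.5 and 0.141 for Apoa1 and 20.9 and 0.126 for Apoa2, the high-density lipoprotein genes. It was 24.6 and 0.119 for Apob, the latter from 2 UMIs and without passing the filter, and 5.16 and 0.207 for Apoc1. For Apoc3 it was 21.5 and 0.259, and for Apoh 16.2 and 0.108. The difference between the time points was not tested, since each is 1 library and both share the control library. For Apoe the higher level on day 1 p.i. turned lower under 3 of the alternatives given among the processing settings.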

How the results depend on the processing

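With 1 library per condition, no setting speaks to the spread between animals, and no paired analysis was possible because each condition has 1 library. The setting with the hepatocyte gate at 20% gave no value, since no control barcode reached it. The settings that leave out hepatocyte-gated barcodes or subtract free RNA were chosen after seeing the data. The cause was not tested for any value that moved, apart from the samples or barcodes that a setting leaves out.

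The ratio of the 7 members summed on day 1 p.i. (1.88) was 1.94 from barcodes with at least 100 genes, 2.32 with at least 500 genes, 1.91 without mitochondrial UMIs, 1.83 divided by the median gene, 1.58 thinned to 300 UMIs, 1.46 without the 5% deepest barcodes and 1.34 without hepatocyte-gated barcodes. On day 7 p.i. (0.393) it was 0.369, 0.410, 0.326, 0.456 and 0.400 under the first 5 of these and 0.406 without hepatocyte-gated barcodes. Apoe in macrophage-gated barcodes on day 1 p.i. (0.684) was 0.660 from at least 100 genes, 0.787 from at least 500 genes, 0.711 without mitochondrial UMIs, 0.628 thinned, 0.637 without the deepest barcodes and 0.750 with free RNA subtracted. On day 7 p.i. (0.540) it was 0.576 from at least 500 genes, 0.469 without mitochondrial UMIs, 0.491 divided by the median gene, 0.483 thinned and 0.457 with free RNA subtracted, so that all but the first of these passed 2-fold.

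The direction turned for Apoe over all cells on day 1 p.i., to 0.971 thinned, 0.924 without the deepest barcodes and 0.900 without hepatocyte-gated barcodes. In hepatocyte-gated barcodes it turned for Apoc3 (0.963 thinned, 0.984 without the deepest barcodes). For Apob there, thinning left 0 control UMIs and a lower bound of 0.934, which shows no direction. Of 32 alternatives for the summed members, for Apoe in macrophage-gated barcodes and for the main counts of members, 8 kept the value, 24 moved it and 0 turned it. Of 220 alternatives for single members and the remaining counts, 157 kept the value within its interval or within 1.5 times the count, 57 moved it in the same direction and 6, the Apob bound included, fell on the opposite side of 1. The count of members at least 2-fold lower on day 7 p.i. was 7 in place of 6 with a filter of 10 UMIs per gene. Without the 5% deepest barcodes Apoc3 on day 7 p.i. was 0.555, no longer 2-fold lower, and Apoa1, Apoa2 and Apoh were 0.369, 0.349 and 0.319. Counts were low for Apob on day 1 p.i. after thinning, where 3 control UMIs gave a ratio of 107.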
